A study of Mus musculus with 6 samples.

Results

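Integrins and laminins are the receptor and ligand families through which cells hold on to the basement membrane, and all 36 of their genes that could be read from mouse induced pluripotent stem (iPS) cell arrays are described here. The members are the genes whose symbols name an integrin α chain (18 genes), an integrin β chain (8 genes) or a laminin α, β or γ chain (10 genes), out of 19938 genes with 1 symbol on the array. The 3 shECAD clones, numbered 4, 8 and 9, are iPS lines made from OG2 mouse embryonic fibroblasts with retroviruses for Sox2, Klf4, Oct4 and c-Myc and a short hairpin RNA (shRNA) against E-cadherin. The 3 control clones, numbered 2, 3 and 4, received the same 4 factors and an shRNA against luciferase, which has no target in mouse cells. Each clone is a line grown from 1 colony, picked on day 14 after a move to feeder cells on day 6, and was read on 1 whole-transcript array (n = 3 clones per group throughout). All clones were kept on feeder cells in mouse embryonic stem cell medium, and the feeders were removed before extraction, per the labels. The labels describe separate lines but not separate infections, and p-values therefore cover the variation among these clones alone. Values are log2 expression values as deposited, a difference of 1 is a change of 2-fold, and a change is shECAD minus control.

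An integrin is a pair of 1 α and 1 β chain that spans the cell membrane, and the α chain largely sets which matrix protein the pair binds. Integrins with the α3, α6 or α7 chain bind laminins, those with α1, α2, α10 or α11 bind collagens, and those with α4, α5, α8 or αv bind fibronectin and related proteins. Most of these α chains pair with the β1 chain. A laminin is a cross-shaped trimer of 1 α, 1 β and 1 γ chain and is the main scaffold of the basement membrane, and α6β1 is a major laminin receptor of mouse pluripotent cells.

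Promoters from RefSeq (build GRCm38.p6, 250 bases before to 50 after the listed start) were matched for 23 of the 36 genes by symbol. Of the 7 members that differed between the groups, 4 matched and are printed here. All 4 were higher in the shECAD clones. Capitals mark every copy, on either strand, of 4 motifs: CAGGTG (the E2-box bound by the Snai and Zeb repressors), GGGCGG (the GC box), TGANTCA (AP-1) and GGAATG (TEAD).
Itga4, chr2:79255176-79255475, plus strand: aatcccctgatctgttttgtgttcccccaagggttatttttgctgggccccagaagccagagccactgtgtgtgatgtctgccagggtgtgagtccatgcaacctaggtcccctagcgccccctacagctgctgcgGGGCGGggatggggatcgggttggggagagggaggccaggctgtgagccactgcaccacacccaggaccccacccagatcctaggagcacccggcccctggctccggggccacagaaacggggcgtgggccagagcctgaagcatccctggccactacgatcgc
Itgb1, chr8:128685404-128685703, plus strand: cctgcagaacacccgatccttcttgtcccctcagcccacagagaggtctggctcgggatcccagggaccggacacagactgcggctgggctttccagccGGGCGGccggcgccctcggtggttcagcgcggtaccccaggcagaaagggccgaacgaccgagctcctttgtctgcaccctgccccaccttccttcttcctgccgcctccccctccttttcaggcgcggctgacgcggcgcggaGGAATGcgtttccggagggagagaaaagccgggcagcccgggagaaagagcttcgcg
Itgb8, chr12:119238227-119238526, minus strand: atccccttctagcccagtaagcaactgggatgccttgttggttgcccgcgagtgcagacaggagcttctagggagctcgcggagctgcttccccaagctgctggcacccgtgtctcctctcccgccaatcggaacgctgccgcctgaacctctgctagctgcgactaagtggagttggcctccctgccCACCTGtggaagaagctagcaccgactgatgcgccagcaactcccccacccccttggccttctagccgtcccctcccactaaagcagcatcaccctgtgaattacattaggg
Lama2, chr10:27616893-27617192, minus strand: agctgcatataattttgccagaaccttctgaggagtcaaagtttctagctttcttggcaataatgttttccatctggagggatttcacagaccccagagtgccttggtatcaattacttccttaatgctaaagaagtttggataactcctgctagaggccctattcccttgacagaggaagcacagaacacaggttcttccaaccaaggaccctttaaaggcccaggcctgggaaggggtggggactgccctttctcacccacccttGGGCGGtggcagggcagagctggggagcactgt
The Itga4, Itgb1 and Lama2 windows each hold 1 GC box, the Itgb1 window also 1 TEAD motif, and the Itgb8 window 1 E2-box, read on the other strand. No motif overlaps another. Across the 32851 promoter windows of the table, 35.7% hold a GC box, 20.2% an E2-box, 14.7% a TEAD motif and 7.81% an AP-1 motif. Of the 26 windows listed for members, 12 hold a GC box, 8 an E2-box, 3 a TEAD motif and 3 an AP-1 motif.

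Cdh1, the gene of E-cadherin and the target of the shRNA, averaged 7.16 ± 0.57 in shECAD clones and 9.28 ± 0.28 in control clones (SD, n = 3 each). Its log2 change was -2.13 ± 0.27 (SE, limma adjusted p = 0.00683). Most genes that mark fibroblasts, the starting and feeder cells, were higher in the shECAD clones. Of 22 markers 14 were called higher (5 to 15 with a clone left out) and 0 lower, 63.6% of the list against 3.12% of all genes. Lum and Dpt had log2 changes of -0.23 and -0.14, and their groups overlapped. Dcn, Pdgfra and Col3a1, with log2 changes of 0.48, 0.38 and 0.82, overlapped too. The mean level of the 22 markers was 6.80, 7.11 and 6.80 in shECAD clones 4, 8 and 9, against 6.17, 5.76 and 5.15 in control clones 2, 3 and 4. Of 12 pluripotency markers 0 were called by limma. An unadjusted p below 0.05 was found for 4 of them, all lower in the shECAD clones, and for 3595 of all 19938 genes. The median log2 change was -0.39 over the 12 markers, 9 of them below 0, and 0.03 over all genes. The mean level of the 12 markers was 9.00 to 9.56 in shECAD clones and 9.47 to 9.84 in control clones. Of 10 primitive endoderm markers 0 were called and 3 had an unadjusted p below 0.05, all higher, with mean levels of 4.99 to 5.37 in shECAD clones and 4.60 to 5.09 in control clones. Among 8 smooth muscle markers 4 were called higher (4 with any clone left out), 50% of the list against 3.12% of all genes. Their mean levels were 6.39 to 6.67 in shECAD clones and 5.14 to 5.49 in control clones over the 8 markers. Among 9 leukocyte markers 1 was called lower, Laptm5 (not without shECAD clone 8 or any control clone), 11.1% of the list. The defining marker Ptprc read 3.60 to 3.92 in shECAD clones and 3.59 to 3.97 in control clones, below the 25th percentile of the array in all 6. None of 8 endothelial markers was called by limma, and 1 had an unadjusted p below 0.05. The mean levels of the fibroblast and smooth muscle lists separated the groups, whereas those of the pluripotency, primitive endoderm, leukocyte (4.90 to 5.07 in shECAD clones and 4.96 to 5.31 in control clones) and endothelial lists (4.50 to 4.65 in shECAD clones and 4.39 to 4.70 in control clones) overlapped. The part of the fibroblast and smooth muscle genes in the results below was not tested. In RNA from a whole culture, fewer cells of a type and less RNA per cell cannot be told apart.

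Of the 36 integrin and laminin genes, 5 rose and 2 fell in the shECAD clones. The genes that rose were Itgb1, Itgb8, Itga4, Lama2 and Lama4, and those that fell were Itga6 and Lama3. The 7 calls are 19.4% of the members. Across all genes limma called 3.12%, 1.90% higher and 1.23% lower, a split of 378 against 245 genes that became 298 against 383 once every array was centred on its median value. The median log2 change was 0.31 over the members and 0.03 over all genes. The groups did not overlap in 21 members, 17 of them higher and 4 lower in the shECAD clones, where 23.6% of all genes did not overlap (11.1% higher and 12.5% lower). An unadjusted p below 0.05 was found for 19 of the 36 members and for 3595 of all 19938 genes. Each call rests on few clones: with control clone 4 left out 0 members were called by limma (20 had an unadjusted p below 0.05). In that fit 0.732% of all genes were called. Without any other clone 1 to 4 members were called, beside 0.782% to 2.72% of all genes. Quantile normalization kept the calls of Itga4, Itga6, Itgb1 and Lama3, and testing every probeset on its own those of Itga4 and Itgb1. Without variance moderation limma called 0 members (16 had an unadjusted p below 0.05) and only 3 of all 19938 genes.

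**Figure D1:**
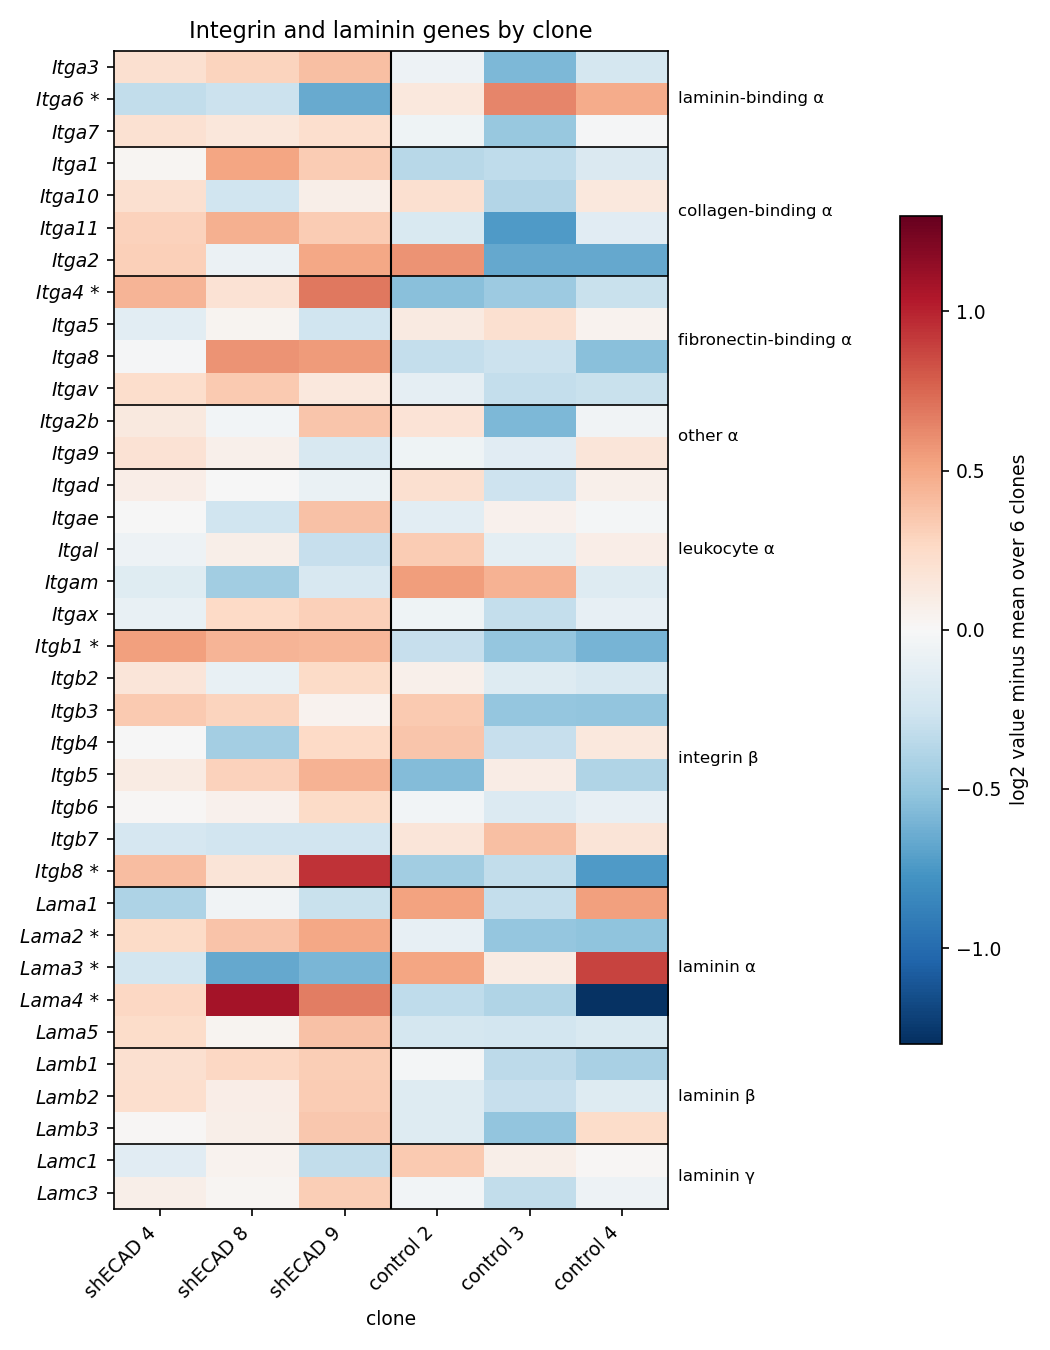
Log2 value of each of the 36 genes (rows, grouped by role) in each clone (columns), minus the gene's mean over the 6 clones; red is above and blue below that mean, and an asterisk marks the 7 genes that passed the test. Itga6 and Lama3 are blue in all 3 shECAD clones, whereas Itgb1, Itgb8, Itga4, Lama2 and Lama4 are red in all 3.

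Among the laminin-binding α chains, Itga6 fell in the shECAD clones, and Itga3 and Itga7 were measured above the control clones without passing the test. Itga6 encodes the α6 chain, which pairs with β1 or with β4, the chain that anchors epithelial cells at hemidesmosomes. It read 7.91, 7.96 and 7.58 in shECAD clones 4, 8 and 9, against 8.37, 8.87 and 8.72 in control clones 2, 3 and 4. Every shECAD clone lay below every control clone, with a gap of 0.41 between the nearest clones. The log2 change was -0.84 ± 0.18 (SE), a level 0.56 times that of the control clones (limma adjusted p = 0.0385). The call held with control clone 2 left out and was lost without any of the other 5 clones, where the adjusted p reached 0.143.

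Itga3, whose α3 chain joins β1 in a receptor for laminins of epithelial basement membranes, read 6.44, 6.52 and 6.62 in shECAD clones 4, 8 and 9, against 6.17, 5.65 and 6.00 in control clones 2, 3 and 4. The shECAD clones were all above the control clones, the reverse of Itga6. The log2 change of 0.59 had a 95% interval from 0.21 to 0.97 and did not pass the adjustment over all genes (limma adjusted p = 0.0987). Itga7, the laminin receptor chain best known from muscle, read 4.84 to 4.91 in shECAD clones and 4.20 to 4.67 in control clones, with a log2 change of 0.38 (limma adjusted p = 0.268). Itgb4, the β4 chain, had a log2 change of -0.13 with an interval from -0.62 to 0.36, and its groups overlapped. The laminin-binding α chains therefore did not share a direction, and their mean level was 6.41, 6.44 and 6.37 in shECAD clones 4, 8 and 9 and 6.39, 6.24 and 6.47 in control clones 2, 3 and 4.

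Among the fibronectin-binding α chains 1 of 4 rose, Itga4, and the main fibronectin receptor chain gene Itga5 was measured on the other side. Itga4 encodes the α4 chain, which binds fibronectin and the adhesion molecule VCAM1. It read 4.82, 4.56 and 5.06 in shECAD clones 4, 8 and 9, against 3.83, 3.90 and 4.09 in control clones 2, 3 and 4. The groups were separate, but all 3 control values lay below the 25th percentile of their arrays, so that the size of the change (log2 change 0.87 ± 0.17 SE, limma adjusted p = 0.0295) rests on a dim level in the control clones. The call was lost without any clone but shECAD clone 8, with an adjusted p of up to 0.0828. Itga5 read 7.17, 7.34 and 7.05 in shECAD clones, against 7.42, 7.51 and 7.35 in control clones. All shECAD values lay just below the control values, and the log2 change of -0.24 had an interval from -0.58 to 0.09 (limma adjusted p = 0.439).

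Itgav encodes the αv chain, a receptor for vitronectin, fibronectin and latent TGF-β, and read 7.90, 8.01 and 7.81 in shECAD clones, against 7.55, 7.36 and 7.38 in control clones. The groups were separate and tight, and the log2 change of 0.48 (interval 0.15 to 0.81) did not pass (limma adjusted p = 0.117). Itga8, the α8 chain of mesenchymal and smooth muscle cells, read 4.64, 5.24 and 5.21 in shECAD clones, against 4.34, 4.37 and 4.11 in control clones, a log2 change of 0.76 (limma adjusted p = 0.0638). It passed only in the fit without shECAD clone 4, its lowest value in that group (log2 change 0.95, limma adjusted p = 0.046). The mean level of these 4 genes was 6.13, 6.29 and 6.28 in shECAD clones and 5.78, 5.78 and 5.73 in control clones. The mean of the fibroblast markers, at 6.80 to 7.11 in shECAD clones and 5.15 to 6.17 in control clones, was separated in the same direction.

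None of the 4 collagen-binding α chains passed the test in limma, and 2 had an unadjusted p below 0.05. Itga11, the collagen receptor chain of fibroblasts, read 5.03, 5.19 and 5.06 in shECAD clones, against 4.53, 4.00 and 4.58 in control clones (log2 change 0.72, limma adjusted p = 0.0641). Itga1, whose α1 chain prefers the collagen of basement membranes, read 4.78, 5.27 and 5.09 in shECAD clones, against 4.40, 4.43 and 4.57 in control clones (log2 change 0.58, limma adjusted p = 0.0958). In both, every shECAD clone lay above every control clone. Itga2 and Itga10 had log2 changes of 0.49 and 0.02 with groups that overlapped, and Itga2 ranged from 3.87 to 5.12 among the control clones alone. The mean level of the 4 genes was 4.92, 4.87 and 5.02 in shECAD clones and 4.77, 4.19 and 4.50 in control clones.

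The laminin-binding chains were set against Itga5 and Itgav by the difference of the 2 log2 values within each clone. This difference does not move with a constant shift of an array, but it can move with the array's spread. It is read between clones only. Relative to Itgav, Itga6 was -0.09 ± 0.13 in shECAD clones and 1.22 ± 0.36 in control clones (SD, n = 3 each). The difference between the groups was -1.32, the clones did not overlap, and all 20 labellings of the clones, taken in an exact permutation test (two-sided), gave p = 0.1, which is the lowest value possible with 3 clones a group. Relative to Itga5, Itga6 was also lower in every shECAD clone, by -0.59 (exact p = 0.1). Itga3 and Itga7 were both higher relative to Itga5 in every shECAD clone, by 0.83 and 0.62 (exact p = 0.1 for each). Relative to Itgav they overlapped, with differences of 0.11 and -0.10 (exact p = 0.6 for each). Over the 6 pairs the adjusted p was 0.15 for the 4 separated pairs and 0.6 for the other 2, and no pair could pass 0.05 in a design of this size. Averaged over role groups, the laminin-binding mean minus the fibronectin-binding mean was 0.28, 0.15 and 0.09 in shECAD clones 4, 8 and 9, against 0.61, 0.45 and 0.73 in control clones 2, 3 and 4. The laminin-binding mean minus the collagen-binding mean was 1.49, 1.57 and 1.35 in shECAD clones, against 1.62, 2.05 and 1.97 in control clones. Both differences were smaller in every shECAD clone, and no test was made of these averages. The laminin-binding mean itself changed by 0.04, as Itga6 fell while Itga3 and Itga7 were measured higher. The fibronectin-binding mean changed by 0.47 and the collagen-binding mean by 0.45. These averages were taken on the deposited values alone and were not repeated after quantile normalization.

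**Figure D2:**
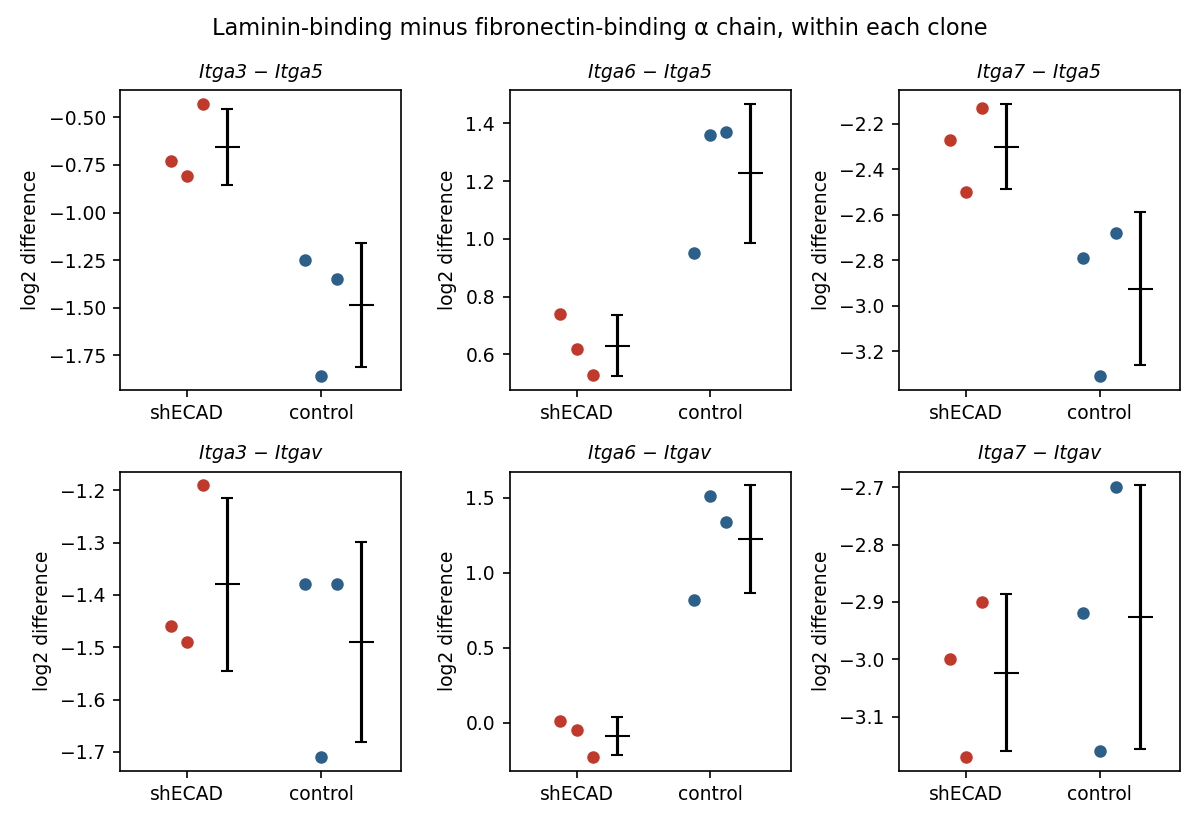
Within-clone difference of log2 values between a laminin-binding chain (Itga3, Itga6 or Itga7) and Itga5 (top) or Itgav (bottom); points are clones, and the bar is the mean ± SD of 3 clones. Itga6 minus Itgav was -0.09 in shECAD clones and 1.22 in control clones, whereas Itga3 and Itga7 minus Itgav overlapped between the groups.

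Of the 8 β chain genes, Itgb1 and Itgb8 rose. Itgb1, the β1 chain shared by most laminin, fibronectin and collagen receptors, read 10.15, 10.06 and 10.05 in shECAD clones 4, 8 and 9, against 9.32, 9.11 and 9.01 in control clones 2, 3 and 4. The groups were far apart for their spread, and the change was 1.92-fold (log2 change 0.94 ± 0.15 SE, limma adjusted p = 0.0143). It had the smallest adjusted p of the 36 genes. Its change stayed between 0.87 and 1.03 with any clone left out, while its adjusted p rose to 0.0519 when shECAD clone 4 was omitted, to 0.0538 for shECAD clone 8 and to 0.0687 for control clone 4. Itgb1 and the α6 chain gene of its laminin receptor thus changed in opposite directions.

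Itgb8, whose β8 chain pairs with αv and activates latent TGF-β, read 5.10, 4.86 and 5.63 in shECAD clones, against 4.24, 4.38 and 3.96 in control clones. The groups were separate, with shECAD clone 9 highest and control clone 4 lowest and below the 25th percentile of its array. The log2 change was 1.0 ± 0.21 (SE, limma adjusted p = 0.0348), and the call was lost whichever clone was left out (highest adjusted p 0.141). Itgb5, another partner of αv in vitronectin receptors, read 7.48, 7.67 and 7.82 in shECAD clones, against 6.80, 7.46 and 6.98 in control clones, and missed the threshold (log2 change 0.58, limma adjusted p = 0.145). The shECAD clones all lay above the control clones, though shECAD clone 4 and control clone 3 were nearly level. Itgb7, a partner of α4 in lymphocytes, read 5.30, 5.27 and 5.27 in shECAD clones, against 5.67, 5.91 and 5.68 in control clones (log2 change -0.48, limma adjusted p = 0.116). Its groups were separate with the shECAD clones lower, opposite to Itga4. Itgb3, Itgb6 and the leukocyte chain gene Itgb2 had log2 changes of 0.45, 0.22 and 0.21, and Itgb6 lay below the 25th percentile on all 6 arrays.

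None of the 5 leukocyte α chain genes (Itgad, Itgae, Itgal, Itgam and Itgax) passed in limma, with log2 changes from -0.56 to 0.32, and 1 had an unadjusted p below 0.05. That gene was Itgam, an α chain of macrophages and neutrophils, with 3.91 to 4.20 in shECAD clones and 4.19 to 4.91 in control clones (limma adjusted p = 0.185). The remaining α chain genes, Itga9 and the platelet chain gene Itga2b, had log2 changes of 0.03 and 0.30 and overlapped between the groups.

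**Figure D3:**
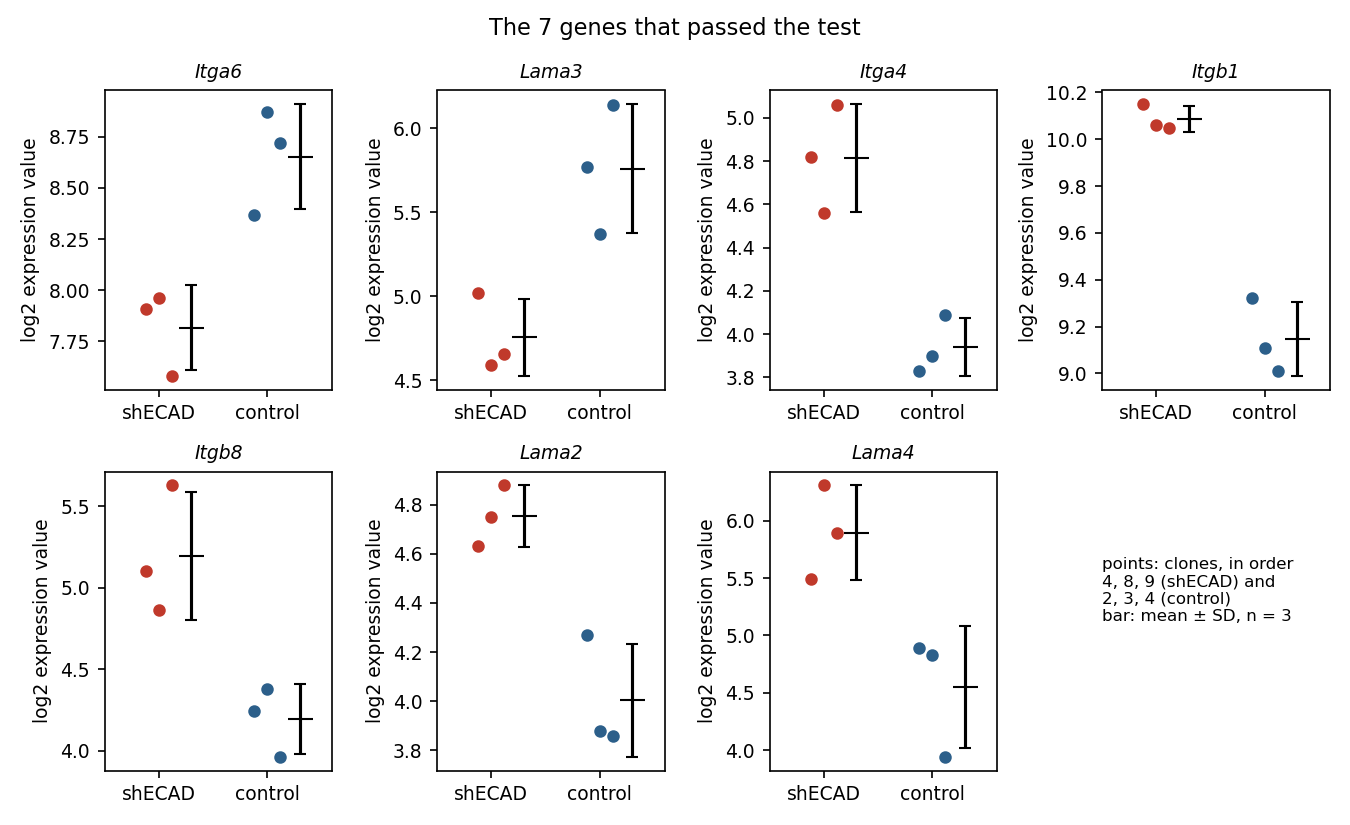
Log2 expression value of the 7 genes that passed the test in each clone (points), with the mean ± SD of 3 clones beside them; the vertical axes differ and do not start at 0. Itga6 and Lama3 are lower in every shECAD clone, and Itgb1 stands at 10.05 to 10.15 in the shECAD clones against 9.01 to 9.32 in the control clones.

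The laminin α chain, which carries the main integrin-binding sites of a laminin, differed between the groups in 3 of 5 genes, and the direction depended on the chain. Lama4 and Lama2 rose and Lama3 fell. Lama4, the chain of vessel and mesenchymal basement membranes, read 5.49, 6.31 and 5.89 in shECAD clones 4, 8 and 9, against 4.89, 4.83 and 3.94 in control clones 2, 3 and 4. It had the largest change of the 36 genes, 2.54-fold (log2 change 1.34 ± 0.28 SE, limma adjusted p = 0.0325), and also wide spread, with control clone 4 far below the other control clones and below the 25th percentile of its array, so that the size of the change rests in part on a dim level. Without that clone the log2 change was 1.03 and the call was lost, as it was without shECAD clone 8 or shECAD clone 9. Lama2, the chain of muscle and nerve basement membranes, read 4.63, 4.75 and 4.88 in shECAD clones, against 4.27, 3.88 and 3.86 in control clones. These groups were separate, and 2 of the control values lay below the 25th percentile of their arrays. The log2 change was 0.75 ± 0.17 (SE, limma adjusted p = 0.0426), and the call was lost when the arrays were centred on their medians (adjusted p = 0.0521) and without any clone but control clone 2.

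Lama3, the α chain of the epithelial laminin that anchors hemidesmosomes through α6β4, read 5.02, 4.59 and 4.66 in shECAD clones, against 5.77, 5.37 and 6.14 in control clones. Every shECAD clone lay below every control clone. The log2 change was -1.01 ± 0.21 (SE, limma adjusted p = 0.0339), a level 0.497 times that of the control clones, and the call was lost without any clone but control clone 3, up to an adjusted p of 0.131. Lamb3, the β chain of that laminin, had a log2 change of 0.29 with overlapping groups.

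Lama1 and Lama5, the α chains of the early embryonic basement membranes, did not pass the test. Lama5 read 8.01, 7.81 and 8.16 in shECAD clones, against 7.55, 7.54 and 7.58 in control clones (log2 change 0.44, interval 0.10 to 0.78, limma adjusted p = 0.16). Lama1 read 5.79, 6.14 and 5.90 in shECAD clones, against 6.71, 5.88 and 6.72 in control clones, and control clone 3 lay among the shECAD clones (log2 change -0.49, limma adjusted p = 0.299). Lama5 was thus separate between the groups and Lama1 was not.

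Of the laminin β and γ chain genes none passed in limma, and 2 of 5 had an unadjusted p below 0.05. These were the β chain genes of most laminins. Lamb1 read 8.48, 8.54 and 8.60 in shECAD clones, against 8.25, 7.93 and 7.85 in control clones (log2 change 0.53, limma adjusted p = 0.11). Lamb2 read 7.22, 7.09 and 7.34 in shECAD clones, against 6.84, 6.71 and 6.84 in control clones (log2 change 0.42, limma adjusted p = 0.17). In both, the shECAD clones were all higher. Lamc1, the γ chain of most laminins, overlapped between the groups at 8.58 to 8.94 in shECAD clones and 8.91 to 9.24 in control clones (log2 change -0.28, interval -0.65 to 0.08). Lamc3, another γ chain gene, had a log2 change of 0.28 with an interval from -0.07 to 0.63.

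**Figure D4:**
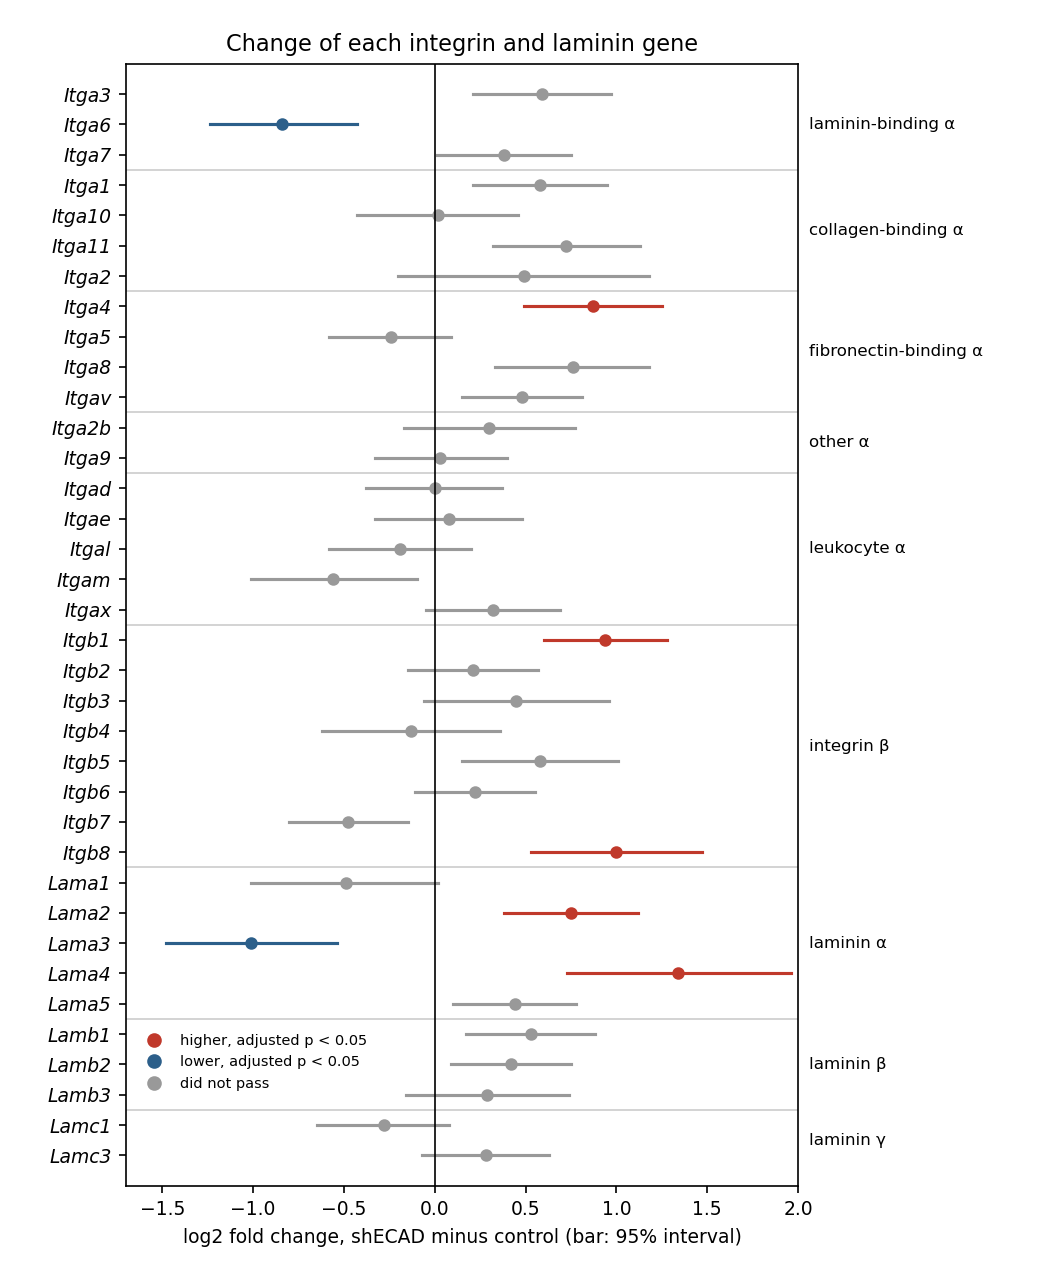
Log2 change (shECAD minus control) of each of the 36 genes with its 95% interval, grouped by role; red and blue mark the 5 genes that rose and the 2 that fell at an adjusted p below 0.05, and grey those that did not pass. The laminin-binding α chains and the laminin α chains each hold changes of both signs, from -0.84 to 0.59 and from -1.01 to 1.34.

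The fibroblast markers differed between clones of the same group, and the 7 genes can be read beside them. Among the control clones the marker mean was highest in clone 2, at 6.17, and lowest in clone 4, at 5.15. Itgb1, Lama2 and Lama4 had the same order, highest in control clone 2 and lowest in control clone 4. Itgb8 was lowest in control clone 4 but highest, at 4.38, in control clone 3, and Lama3 was highest in control clone 4 but lowest, at 5.37, in control clone 3. Itga4 did not follow the markers among the control clones, being highest, at 4.09, in clone 4. Itga6 was lowest, at 8.37, in control clone 2, where the markers were highest. Among the shECAD clones the marker mean was highest in clone 8, at 7.11, and 6.80 in the other two. Clone 8 had the highest Lama4 and Itga6 of the shECAD clones, but the lowest Itga4, Itgb8 and Lama3, at 4.56, 4.86 and 4.59. Itgb1 and Lama2 did not peak there: Itgb1 was highest, at 10.15, in shECAD clone 4 and Lama2, at 4.88, in shECAD clone 9. Whether RNA of fibroblasts or feeder cells accounts for any of these changes was not tested.

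**Figure D5:**
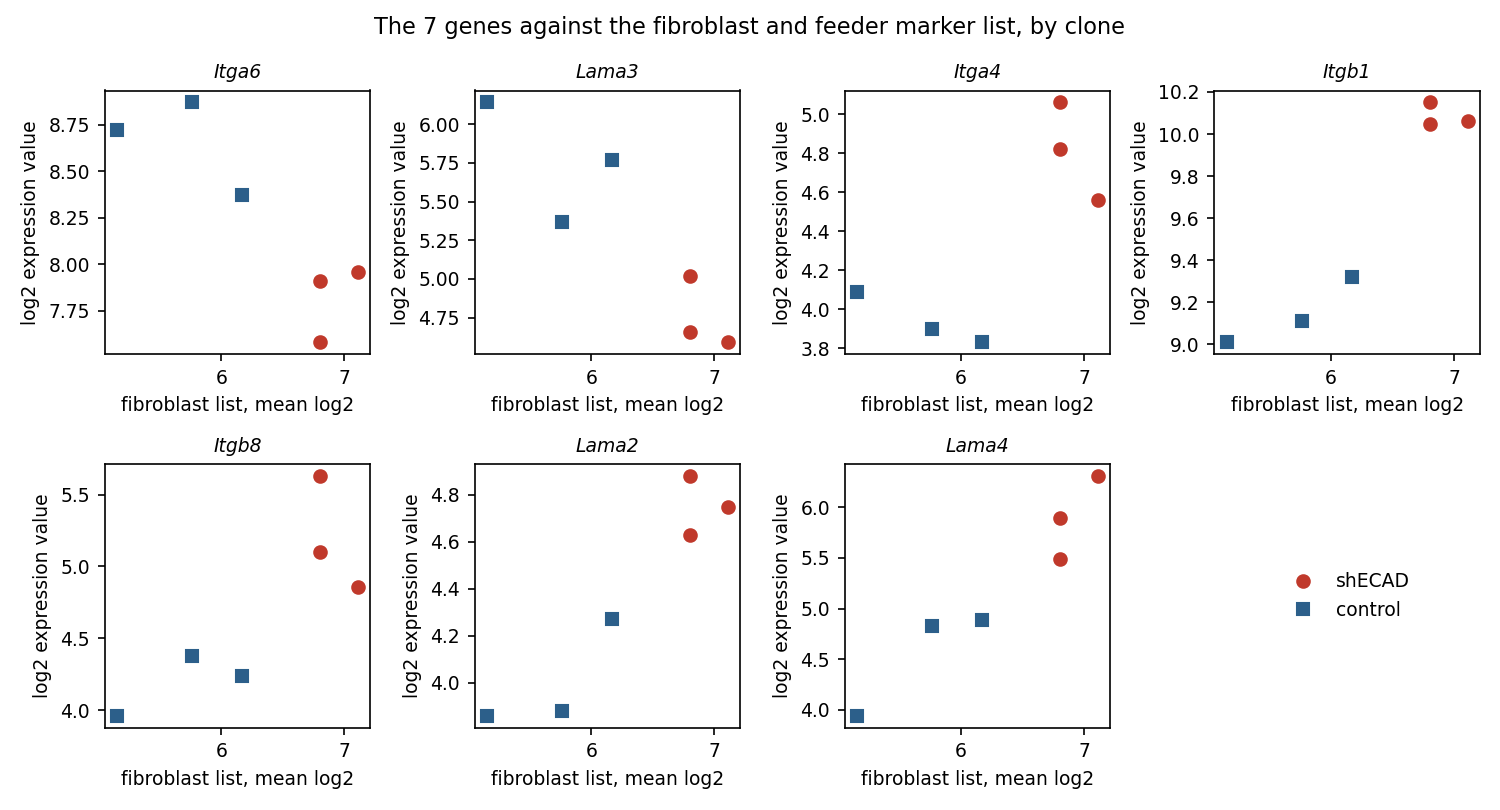
Log2 expression value of each of the 7 genes (vertical axes) against the mean log2 level of the 22 fibroblast and feeder markers (horizontal axes) in each clone; circles are shECAD clones and squares control clones. The markers separate the groups, at 6.80 to 7.11 in shECAD clones and 5.15 to 6.17 in control clones, and 5 of the genes were higher and 2, Itga6 and Lama3, lower in the shECAD clones.

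Of 29 measured genes of proteins that link integrins to the cytoskeleton or switch them on, 2 rose and 0 fell, 6.9% of the list against 3.12% of all genes. Parva, the gene of α-parvin, which ties integrin-linked kinase to actin, read 7.36, 7.35 and 7.21 in shECAD clones, against 6.60, 5.86 and 5.37 in control clones (2.57-fold, limma adjusted p = 0.0275). Zyx, the gene of the focal adhesion protein zyxin, read 7.03, 7.05 and 7.31 in shECAD clones, against 6.60, 6.32 and 6.35 in control clones (1.63-fold, limma adjusted p = 0.0439). In each gene the groups were separate. Parva kept its call only without control clone 2 and Zyx lost its call without any 1 clone, up to an adjusted p of 0.0822 and 0.162. The median log2 change was 0.12 over the list and 0.03 over all genes. Of the 29 changes, 17 were above 0 and 12 below. An unadjusted p below 0.05 was found for 9 higher and 3 lower genes of the 29. Across all 19938 genes it was found for 1786 higher and 1809 lower. The 3 lower genes of the list were Tns3, Parvb and Tln2, with log2 changes of -0.85, -0.65 and -0.44 (limma adjusted p = 0.103, 0.173 and 0.156).

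Among 19 genes of other basement membrane proteins and other laminin receptors, 2 rose and 0 fell, 10.5% of the list against 3.12% of all genes. The median log2 change was 0.35 over the list and 0.03 over all genes. They were the paired genes of basement membrane collagen. Col4a2 read 6.37, 6.59 and 6.37 in shECAD clones, against 5.70, 5.39 and 5.22 in control clones (2.01-fold, limma adjusted p = 0.0164). Col4a1 read 6.24, 6.42 and 6.50 in shECAD clones, against 5.94, 5.36 and 5.44 in control clones (1.75-fold, limma adjusted p = 0.0467). Both were separate between the groups. Col4a2 lost its call without shECAD clone 8 or control clone 4 and Col4a1 without any clone but control clone 2. The laminin receptor gene Dag1, which encodes dystroglycan, and the laminin linker gene Nid2 had log2 changes of 0.08 and 0.11. Bcam, another laminin receptor gene, was lower in every shECAD clone without passing (log2 change -0.53, limma adjusted p = 0.131). Of the 19 changes in the list, 16 were above 0 and 3 below. An unadjusted p below 0.05 was found for 4 of the 19 genes (3 higher and 1 lower) and for 3595 of all 19938 genes. Without shECAD clone 8 or control clone 4, limma called 0 genes of the list.

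Of 14 measured ligands of integrins other than laminins, 3 rose and 0 fell, 21.4% of the list against 3.12% of all genes. The median log2 change was 0.48 over the list and 0.03 over all genes. Thbs1, the gene of thrombospondin 1, stood at 10.28 to 10.32 in shECAD clones and at 6.47 to 7.69 in control clones (limma adjusted p = 0.00282), and it kept its call with any clone left out. Tnc, the gene of tenascin C, stood at 8.63 to 9.11 in shECAD clones and at 4.81 to 7.35 in control clones (limma adjusted p = 0.0153), and its call was lost without shECAD clone 4 or shECAD clone 8. Fn1, the gene of fibronectin, the main ligand of α5β1, read 11.19, 11.27 and 10.97 in shECAD clones, against 10.50, 10.35 and 10.26 in control clones. Its groups were separate, and it rose 1.71-fold (log2 change 0.78 ± 0.16 SE, limma adjusted p = 0.0302), while its receptor gene Itga5 did not pass the test. Fn1 lost its call without shECAD clone 4, shECAD clone 8, control clone 3 or control clone 4, up to an adjusted p of 0.131. Vcam1, a ligand of the α4 integrins, missed the threshold with a log2 change of 0.88 (limma adjusted p = 0.116).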

How the data were processed

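Total RNA of 6 mouse iPS clones was hybridised to Affymetrix whole-transcript arrays, 1 per clone, from 100 ng of RNA per the labels' protocols. The authors deposited log2 values per probeset. RMA and Partek are named in the submitters' processing notes, and their versions, settings and genome build were not given in the sources at hand. The values were used as deposited. Array medians lay between 5.11 and 5.30 over 28853 probesets. Probesets were named through the platform annotation (21789 with 1 symbol, 1621 with several, 5443 with none here), with 21698 matched to RefSeq by Entrez identifier. The brightest probeset stood for each gene, for 19938 genes in all, and dim probesets were kept. The table holds no detection calls, so the 25th percentile over genes on each array served as a mark of a dim level. Among members only Itgad has more than 1 probeset, and 3 probesets shared by Rpl35 and Itgam were left out.

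The groups were compared with limma 3.58.1 in R 4.3.3 (lmFit and eBayes, no covariate), with Benjamini-Hochberg adjustment over all genes and a call at an adjusted p below 0.05. The fit was tested on simulated data. The members and lists were chosen with earlier results of these data known. Described are all members and, from each pathway list, called members by size of change. Bcam, Dag1, Nid2, Parvb, Tln2, Tns3 and Vcam1 were named after their values were seen. So were Lum, Dpt, Dcn, Pdgfra and Col3a1 among the fibroblast markers. Some genes of these families and lists are not reported here. Alternatives were median centring, quantile normalization, brighter genes only, averaged or separate probesets, a trend with a robust prior, no variance moderation, array weights, an adjusted p of 0.1, and leaving out each clone. The number of arrays limits the precision.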

Additional observations from a re-analysis of the deposited data

How the results depend on the processing

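Of the 7 called members, all kept their direction in each alternative that tested them. With 1 clone left out, the count of called members ran from 0 to 4 (0 to 3 higher, 0 to 1 lower), Itga8 among them without shECAD clone 4. All-gene counts then ran from 146 to 543 (80 to 378 higher, 49 to 165 lower), with 146 for control clone 4, 156 for shECAD clone 8, 231 for shECAD clone 4, 271 for control clone 3 and 290 for shECAD clone 9 left out.

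Quantile normalization left 4 called members (2 higher; Itga4, Itga6, Itgb1 and Lama3). Brighter genes alone, with 15 members tested, gave 2 (1 higher, Itgb1, and 1 lower, Itga6) and 402 lower genes. Every probeset on its own gave 2 (2 higher, Itga4 and Itgb1, and 0 lower) and 152 lower genes. Without variance moderation limma called 0 members (0 higher, 0 lower; 16 with an unadjusted p below 0.05) and 3 genes (1 higher, 2 lower). Array weights gave 7 members and 1067 genes (644 higher, 423 lower), the robust prior 374 lower genes, and an adjusted p below 0.1 gave 11 members (9 higher) and 1278 genes (709 higher, 569 lower). Centring on the median gave 6 members and 383 lower genes, and higher calls were then 43.8% of all calls (60.7% as reported, 48.5% among brighter genes). Centring moved the median of all genes by -0.09, and brighter genes alone by -0.12.

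The sign turned for 5 uncalled members. The log2 change of Itga10 was -0.07 after centring, -0.11 after quantile normalization, -0.03 with array weights and -0.17 to 0.15 with a clone left out. That of Itga9 was -0.06, -0.07 and -0.05 to 0.14 (centring, quantile, a clone left out), that of Itgae -0.01, -0.04 and -0.09 to 0.23, that of Itgad 0.04 with averaged probesets and -0.14 to 0.10 with a clone left out, and that of Itgb4 -0.31 to 0.06 with a clone left out. Of the pairs, Itga3 minus Itgav ran from 0.00 to 0.16 and Itga7 minus Itgav from -0.21 to 0.01 with a clone left out. The other 4 pairs kept their direction. Quantile normalization moved Itga7 minus Itga5 from 0.62 to 0.39 and Itga7 minus Itgav from -0.1 to -0.33. No paired analysis was possible because the labels give no pairing, and only the clone number 4 occurs in both groups. The causes were not tested.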
